A study of Mus musculus with 2 samples.

Results

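Mural nuclei, the nuclei of pericytes and vascular smooth muscle cells, were picked by their own marker RNA from single-nucleus RNA profiles of the mouse hippocampus. A nucleus was taken when it held at least 500 genes, at most 5% mitochondrial UMIs and at most 8000 UMIs (a UMI is a tag that counts 1 captured RNA molecule). It also needed at least 4 UMIs from at least 3 of the genes Pdgfrb, Rgs5, Kcnj8, Abcc9, Notch3, Vtn and Acta2, and at most 1 UMI of the endothelial genes Flt1 and Cldn5. This gave 67 mural nuclei of 35285 that passed the gene and mitochondrial limits, 24 of 16034 in the male library and 43 of 19251 in the female library. The study holds 2 libraries, 1 male and 1 female, from mice aged 3 months, and both carry the genotype Stra8L/- with Nestin-Cre. Stra8 is known as the switch that lets germ cells enter meiosis, and the Nestin promoter drives the recombinase Cre in neural progenitors, while nestin is also known from some perivascular cells. No library of another genotype was analysed here, and how many animals entered each library was not given in the sources used here. With 1 library per group no difference was tested. Effects of sex, of the single animal or pool, of dissection and of library preparation cannot be told apart. All intervals are 95% intervals that cover counting error only.

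Mural cells wrap the endothelial tube of blood vessels. Pericytes sit on capillaries inside the vascular basement membrane, are recruited through the receptor PDGFRB and help to maintain the blood-brain barrier. Smooth muscle cells ring arterioles and set their width with the actin and myosin machinery, and graded forms lie between these types along the vessel.

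Pericyte genes outside the rule were plentiful in these nuclei, while smooth muscle genes rested on few molecules. The nuclei that the rule took thus bear the pericyte side of the label more than the other. The pericyte list held 20 genes, none of them in the rule, and all 20 had a UMI in mural nuclei. A mural nucleus of the male library held a median of 9.5 UMIs of this list (2 to 36). One of the female library held a median of 9 (0 to 23). The median was 0 in oligodendrocyte-like nuclei of either library. Those nuclei held at least 4 UMIs from at least 3 oligodendrocyte genes and at most 8000 UMIs in all. They also held at most 1 UMI of the 7 genes of the rule, so those genes were low there by choice. Acta2, the smooth muscle actin that defines contractile mural cells, had no UMI in the male mural nuclei and 8 UMIs in 4 of the 43 female ones. Of the 20 genes of the contractile list, 5 had no UMI in any mural nucleus, namely Synpo2, Tpm2, Actg2, Myocd and Map3k7cl. Acta2 is the only gene of the contractile machinery in the rule, so the rule itself may favour pericyte nuclei. The set is called mural nuclei, with mostly pericyte genes, as a description of the nuclei taken. The balance of the 2 cell types in the tissue cannot be read from it.

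The mural nuclei were shallow and few. Their median depth was 2578.5 UMIs in the male library (919 to 7267) and 2516 in the female library (1010 to 7912), and they summed to 78726 and 126198 UMIs. Each UMI was thus worth 12.7 CPM (counts per 1000000 UMIs, summed over the nuclei of a class) in male and 7.92 CPM in female mural nuclei. The limit that a count of 0 allows, set at 3 counts, was worth 38.1 and 23.8 CPM. All other nuclei had a median of 4856 and 2963 UMIs. The median mitochondrial share was 1.58% in male and 1.93% in female mural nuclei against 0.606% and 1.39% in other nuclei. The whole libraries held 16174 and 20150 barcodes with 103262825 and 108286856 UMIs. They shared 101 barcodes, none of them among the mural nuclei.

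Mural nuclei made up 0.150% of male nuclei (exact Clopper-Pearson interval 0.0959% to 0.223%) and 0.223% of female nuclei (0.162% to 0.301%). The male share was 0.670 times the female share, with an interval of 0.389 to 1.13 that holds 1. In nuclei with at most 1% mitochondrial UMIs, the ratio was 1.91 (0.458 to 11.2) and rested on 8 male and 3 female nuclei. The direction of the share is therefore not fixed by these data.

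Among the genes that chose the nuclei, the values are a description only. Pdgfrb, the receptor for platelet-derived growth factor, had 41 UMIs in 21 male nuclei (521 CPM) and 84 UMIs in 35 female nuclei (666 CPM), against 6.09 and 7.95 CPM in other nuclei. Rgs5, a GTPase activator for G protein signalling, had 34 UMIs in 16 male and 58 UMIs in 29 female nuclei. Notch3, the Notch receptor of mural cells, had 23 UMIs in 17 male and 29 UMIs in 19 female nuclei. Pdgfrb and Rgs5 were found in most nuclei of each library, and Notch3 in most male but not most female nuclei.

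Kcnj8 and Abcc9 encode the pore and the sulfonylurea receptor subunit of the vascular ATP-sensitive potassium channel, which couples metabolism to membrane potential. They are neighbours on mm10 chromosome 6, Kcnj8 at 142564837 to 142571614 and Abcc9 at 142587862 to 142702315, both on the minus strand in GENCODE vM21. Abcc9 had 37 UMIs in 16 male nuclei (470.0 CPM) and 58 UMIs in 25 female nuclei (459.6 CPM), a ratio of 1.02 without an added constant (95% counting interval 0.658 to 1.57). Kcnj8 had only 4 UMIs in 4 male and 8 UMIs in 8 female nuclei, and its ratio of 0.802 had an interval of 0.177 to 2.99. Vtn, the secreted adhesion protein vitronectin, had 41 UMIs in 18 male nuclei (521 CPM) and 115 UMIs in 39 female nuclei (911 CPM). The Vtn level in male mural nuclei was 0.572 times the female level (0.390 to 0.823). Like the other genes of the rule, Vtn helped to choose the nuclei, so this ratio is a description.

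The limits of the rule cut through a continuum of counts. Of the nuclei at exactly 4 marker UMIs, 3 were male and 7 female, with a median of 8 and 4 UMIs of the pericyte list. Just outside, 2 male and 8 female nuclei had 3 marker UMIs from 3 genes, and their medians were 10.5 and 2.5. Another 4 male and 10 female nuclei had enough marker UMIs but from 2 genes only, with medians of 7 and 3. At the median, nuclei on both sides of the limit thus held UMIs of this list. These counts are not pericyte RNA alone. P2ry14, a gene of the list, was at 196 CPM among other male nuclei and 189 CPM among other female ones. The whole list was at 247 CPM there in either library. The lowest counts in the 2 female sets just outside were 0 and 1 UMIs. The part of P2ry14 in the medians was not tested.

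**Figure D1:**
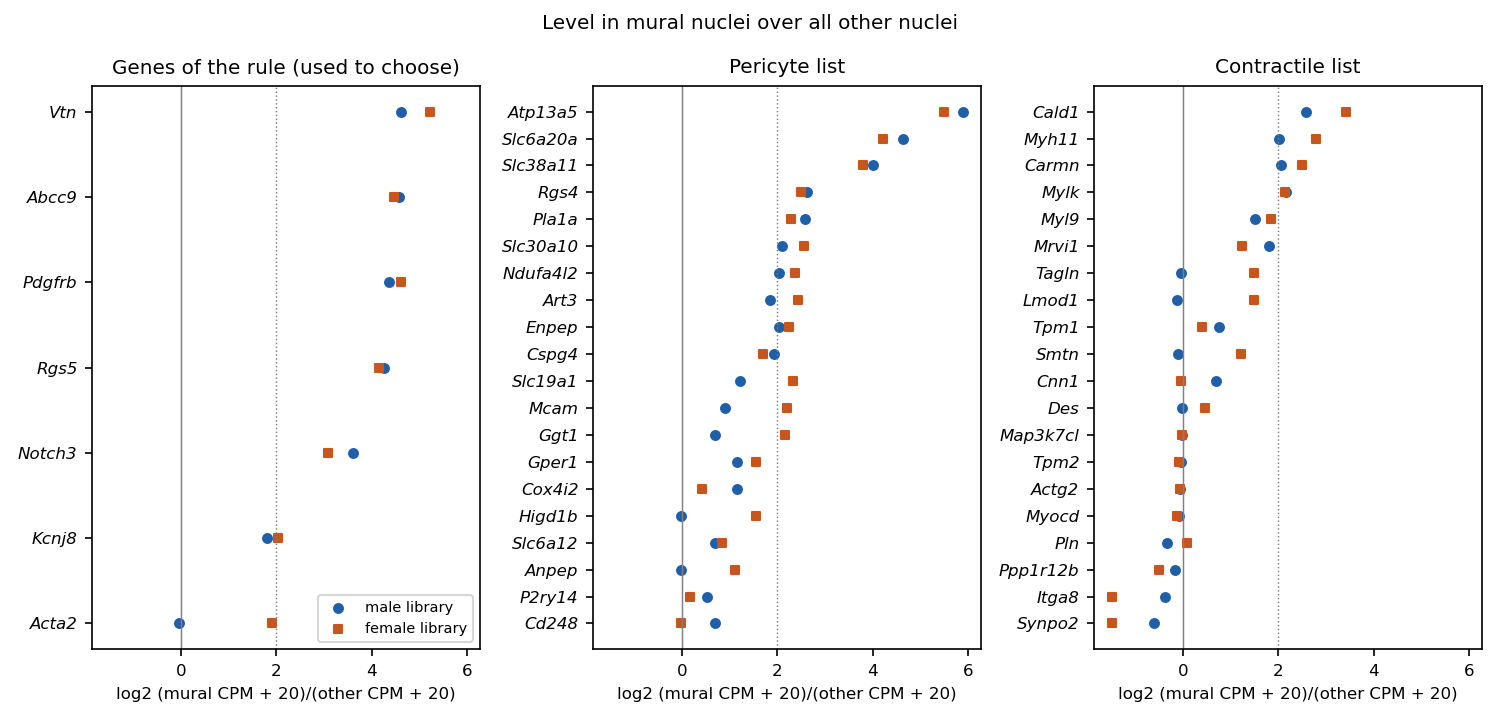
Log2 ratio of the level in mural nuclei over all other nuclei, with 20 CPM added to each side, for the genes of the rule, the pericyte list and the contractile list; circles are the male and squares the female library, and the dotted line marks 4-fold. Atp13a5 stands at 5.90 and 5.50, while most contractile genes lie near 0 in the male library.

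The pericyte genes outside the rule stood well above the other nuclei. At least 4-fold higher levels in each library, on the scale of CPM plus 20, were found for 8 of the 20 genes. Among the 18354 genes with at least 100 UMIs over all nuclei, 73 were that much higher (0.398%). The list counts here and below had no such limit, and Pla1a, 1 of the 8, had 85 UMIs in all. Of the genes counted below, Carmn of the contractile list had 64 UMIs in all and Atp2a3 of the ion channel list had 73. The list median of the log2 ratio was 1.53 in the male library and 2.22 in the female one. The median over the 18354 genes, averaged over libraries, was -0.04. The nuclei were chosen by genes expressed in the same cells, so this is a description with no test.

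Atp13a5, a P5-type ATPase known as a marker of brain pericytes, led the list. It had 113 UMIs in 21 of 24 male nuclei (1435 CPM) and 150 UMIs in 34 of 43 female nuclei (1189 CPM), against 4.44 and 6.69 CPM in other nuclei. The male to female ratio was 1.21 (0.938 to 1.55). Atp13a5 was detected in 87.5% of male mural nuclei and 79.1% of female ones, against 0.859% and 1.39% of oligodendrocyte-like nuclei, which should lack it (median depth 1889 and 1979 UMIs). With nuclei thinned to 1000 UMIs, which left out 1 male mural nucleus, the mural shares were 60.9% and 65.1%, and those of oligodendrocyte-like nuclei 0.304% and 0.416%.

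The named genes of the list included transporters. Slc6a20a, a proline transporter, had 44 UMIs in 15 male and 54 UMIs in 27 female nuclei (log2 ratio over other nuclei 4.63 and 4.21). Slc38a11, of a family of sodium-coupled amino acid transporters, had 26 UMIs in 15 male and 35 UMIs in 22 female nuclei (4.01 and 3.80). Slc30a10, a manganese exporter, had 8 UMIs in 7 male and 20 UMIs in 14 female nuclei (2.09 and 2.55).

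The remaining genes of the 8 were Rgs4, a regulator of G protein signalling (2.63 and 2.49), Pla1a, a phospholipase (2.59 and 2.28), Ndufa4l2, a relative of a respiratory chain subunit (2.04 and 2.38), and Enpep, the angiotensin-cleaving aminopeptidase A (2.03 and 2.24). Cspg4, which encodes the pericyte proteoglycan NG2, came close with 6 UMIs in 5 male and 8 UMIs in 8 female nuclei (1.94 and 1.69). Higd1b, often used to mark pericytes, had 0 UMIs in male nuclei and 5 in female ones. P2ry14, which lies inside Med12l on the other strand, was little above other nuclei (0.53 and 0.16).

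Contractile genes were fewer and lower. Of the 20 genes of the list, 4 were at least 4-fold higher in each library, against 0.398% of the 18354 genes above. The list median was -0.02 in the male library and 0.43 in the female one. Myh11, the smooth muscle myosin heavy chain, had 5 UMIs in 2 male nuclei and 16 UMIs in 10 female nuclei (log2 ratio over other nuclei 2.02 and 2.78). Carmn, a noncoding RNA of smooth muscle, had 5 UMIs in 3 male and 12 UMIs in 10 female nuclei (2.05 and 2.50). Mylk, the kinase that switches on smooth muscle myosin, had 7 UMIs in 4 male and 15 UMIs in 12 female nuclei (2.17 and 2.14). Each of these 3 was found in a minority of nuclei.

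Cald1, the actin- and myosin-binding caldesmon, was the exception, with 38 UMIs in 17 male and 94 UMIs in 33 female nuclei. Its level in male mural nuclei was 0.648 times the female level (0.432 to 0.954), and other nuclei held 64.3 and 51.4 CPM. Tagln, the actin-binding transgelin, and Lmod1, which nucleates actin filaments in smooth muscle, had no UMI in male nuclei and 5 each in female ones. At the limit of 3 counts, the male level would lie only 1.04-fold below the female level, so no difference was detectable at this depth.

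The promoters below are shown because these pericyte and contractile genes hold the same short motif, for which they were picked. They are the bases before the transcription start in RefSeq (build GRCm38.p6), printed on the gene's strand up to the first base that a GENCODE exon covers. Capitals mark CATTCC or its reverse complement GGAATG, the core letters bound by TEAD factors, which act with YAP in mural and many other cells. The Atp13a5 promoter is at chr16:29378733-29378982 (minus strand), that of Vtn at chr11:78498870-78499090 (plus), that of Abcc9 at chr6:142702316-142702524 (minus), that of Lmod1 at chr1:135324563-135324806 (plus) and that of Mylk at chr16:34784700-34784920 (plus). The RefSeq start used for Mylk is internal. The printed stretch ends 39711 bases into the GENCODE gene, so it lies inside that gene.
Atp13a5: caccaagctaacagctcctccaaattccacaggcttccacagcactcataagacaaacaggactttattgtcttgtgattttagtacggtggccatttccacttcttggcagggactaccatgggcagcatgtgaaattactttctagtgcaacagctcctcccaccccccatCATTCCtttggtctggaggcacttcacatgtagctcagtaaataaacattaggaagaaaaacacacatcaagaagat
Vtn: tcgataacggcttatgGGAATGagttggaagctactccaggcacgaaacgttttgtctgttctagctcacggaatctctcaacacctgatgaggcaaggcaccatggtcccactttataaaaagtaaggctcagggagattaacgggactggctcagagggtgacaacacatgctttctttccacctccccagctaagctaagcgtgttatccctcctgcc
Abcc9: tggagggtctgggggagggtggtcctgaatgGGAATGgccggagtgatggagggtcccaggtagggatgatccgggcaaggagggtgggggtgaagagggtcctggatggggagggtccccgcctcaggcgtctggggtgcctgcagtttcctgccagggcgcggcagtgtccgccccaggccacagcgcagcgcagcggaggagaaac
Lmod1: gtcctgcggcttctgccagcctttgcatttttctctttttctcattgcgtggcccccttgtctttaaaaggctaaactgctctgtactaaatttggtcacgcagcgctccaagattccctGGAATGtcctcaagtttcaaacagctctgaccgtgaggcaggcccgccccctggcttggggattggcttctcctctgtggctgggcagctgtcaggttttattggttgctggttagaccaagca
Mylk: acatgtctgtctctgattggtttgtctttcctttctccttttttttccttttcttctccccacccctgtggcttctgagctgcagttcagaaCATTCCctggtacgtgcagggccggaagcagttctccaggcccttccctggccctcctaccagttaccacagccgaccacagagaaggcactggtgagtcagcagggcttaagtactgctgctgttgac

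The motif starts 77 bases before the start of Atp13a5, 234 before Vtn, 219 before Abcc9, 130 before Lmod1 and 158 before Mylk. In windows of 250 bases searched on both strands, CATTCC was found in 14.4% of 27025 genes. It was found in 3 of 15 matched genes of the 20 in the pericyte list, in 7 of 14 matched genes of the 20 in the contractile list and in 3 of 6 matched genes of the 7 in the rule. Those of the contractile list were Lmod1, Mylk, Tpm1, Smtn, Ppp1r12b, Mrvi1 and Cald1. Among the 20 leading genes outside the lists, 14 matched and only Cp had the motif.
GTGGGAA, the letters bound by the Notch partner RBPJ, was found in 6.18% of all promoters, in Slc6a12 of the pericyte list and in none of the contractile list. The CArG box, the site of serum response factor, was found in 1.62% of all promoters and in Myl9 alone of both lists. These matches describe letters in a short window, and no binding was measured.

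Contractile and pericyte UMIs were then counted in each nucleus. A nucleus was called contractile-rich when it had at least 3 UMIs of at least 2 genes of the contractile list. This held for 12 of 24 male nuclei (50.0%) and 25 of 43 female nuclei (58.1%), and all of them also had at least 2 UMIs of the pericyte list, as did 66 of the 67 mural nuclei. The cut is a range and not a type, since 11 male and 12 female nuclei lay within 1 UMI of it, and oligodendrocyte-like nuclei had a median of 1 such UMI. With nuclei thinned to 1000 UMIs the shares were 8.70% and 25.6%.

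The list includes genes such as Cald1 and Ppp1r12b that other nuclei also hold. A shorter list of 14 genes under 5 CPM in other nuclei, chosen after the data were seen and with Acta2 added, gave 2 male (8.33%, interval 1.03% to 27.0%) and 8 female nuclei (18.6%, 8.39% to 33.4%). The intervals of these shares overlap.

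**Figure D2:**
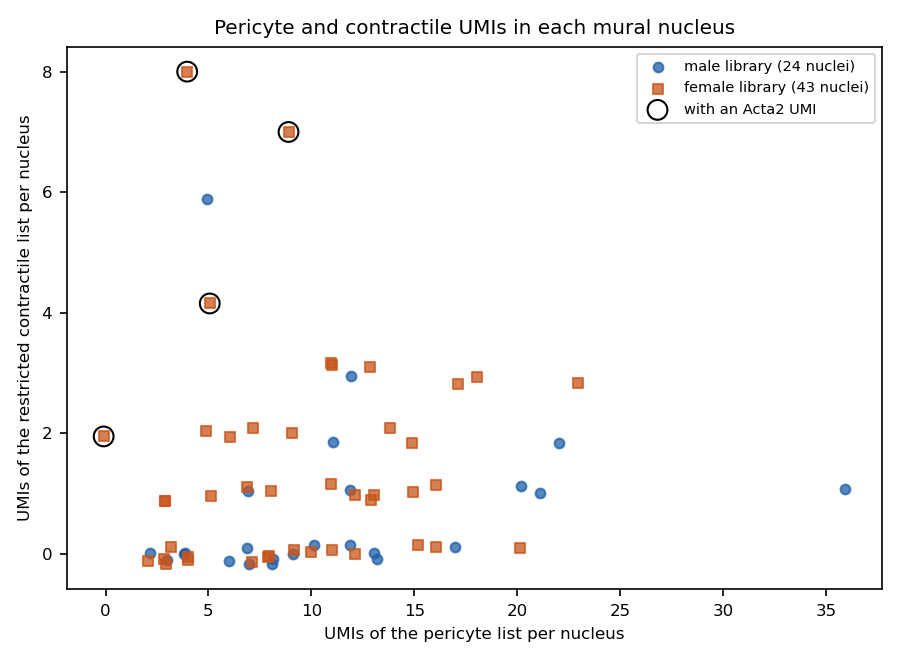
UMIs of the pericyte list (x axis) and of the restricted contractile list of 14 genes (y axis) in each of the 67 mural nuclei, moved by up to 0.18 UMIs so that points do not hide each other; circles are male, squares female, and rings mark the 4 nuclei with an Acta2 UMI. The ringed nuclei hold 2 to 8 contractile UMIs and 0 to 9 pericyte UMIs. Acta2 is on the restricted list and gives 1 to 3 of these contractile UMIs, so the ringed nuclei stand higher by choice.

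The 4 nuclei with Acta2 were all female and held 1, 3, 1 and 3 Acta2 UMIs. None of them had a UMI of Abcc9 or Kcnj8, whereas 41 of the 63 nuclei without Acta2 had Abcc9. These genes are all part of the rule, which ties their counts together, so this is not a test. Outside the rule, the same 4 nuclei held 0, 0, 1 and 2 Atp13a5 UMIs, and all 4 had Ebf1. Tagln was found in 3 of them, and Myh11 in 2. The same 4 nuclei held 3, 47, 12 and 11 UMIs of a neuron list of 8 genes. Acta2 stood at a mean log2 ratio of -0.09 over other nuclei in 1 alternative. There, nuclei with at least 4 UMIs from at least 3 genes of another cell's list were left out. The part of other cells' RNA in these 4 nuclei was not tested. In the male library, 1 nucleus of 1833 UMIs held 4 Myh11 UMIs, no Acta2 and 2 Atp13a5 UMIs.

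The 10 nuclei rich in the shorter list summed to 43886 UMIs and the other 57 to 161038. Their genes were set side by side and named after their values were seen. Abcc9 was at 273 against 515 CPM and Pdgfrb at 387 against 671 CPM. Both are genes of the rule, and Acta2 is in the rule and in the shorter list, so the rule ties these counts together and nothing is read from them. Slc6a20a was at 273 against 534 CPM (ratio 0.512, interval 0.255 to 0.941). Prkg1, the cyclic GMP-dependent kinase, was at 3099 against 1826 CPM (1.70, 1.37 to 2.09), and Tgfbr2, a TGF-beta receptor, had 8 UMIs on each side (182 against 49.7 CPM). Atp13a5 differed less, at 1185 against 1310.2 CPM (0.904, 0.654 to 1.23). Within the same lists, Gucy1b1 went the other way from Prkg1 (0.734, 0.275 to 1.68). Higd1b went the other way from Slc6a20a (5.50, 0.631 to 65.9), and both intervals held 1. Cntnap5a was further up than Prkg1 (2.99, 1.80 to 4.94), as was Ryr2 (2.11, 1.38 to 3.20). Prkg1 itself stood at 1043 CPM in other male nuclei and 1018 CPM in other female ones. No smooth muscle pattern is read from the genes named here. The neuron list stood at 3464 CPM in the 10 nuclei and 2714 CPM in the rest, and its part in these values was not tested.

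Genes that set vessel tone were next. Of 24 vasoactive receptors and cyclic nucleotide genes, 2 were at least 4-fold higher in each library, against 0.398% of the 18354 genes above. The list median was 0.38 in the male library and 0.48 in the female one. Pde8b, a phosphodiesterase that breaks down cyclic AMP, had 90 UMIs in 20 male nuclei (1143 CPM) and 197 UMIs in 40 female nuclei (1561 CPM), a log2 ratio over other nuclei of 2.27 and 2.90. Gucy1a1, a subunit of the guanylate cyclase that senses nitric oxide, had 10 UMIs in 8 male and 15 UMIs in 11 female nuclei (2.21 and 2.16). Its partner Gucy1b1 had 21 UMIs in each library (1.72 and 1.45). Prkg1, which acts after cyclic GMP, had 167 and 263 UMIs, and its log2 ratio of 1.01 and 1.02 was alike in both libraries.

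The endothelin receptor Ednra had 6 UMIs in 5 male and 22 UMIs in 13 female nuclei (log2 ratio over other nuclei 1.99 and 2.94). Pde3a and Pde5a, the phosphodiesterases that end cyclic AMP and cyclic GMP signals in smooth muscle, had few male UMIs. Pde3a had 2 UMIs in 2 male nuclei and 22 UMIs in 15 female nuclei, a male to female ratio of 0.146 (0.0166 to 0.593). Pde5a had 2 UMIs in 1 male nucleus and 21 UMIs in 13 female nuclei, a ratio of 0.153 (0.0174 to 0.625). In all other nuclei the log2 male to female ratios were -0.15 for Pde3a and 0.00 for Pde5a, but each mural value rests on 2 male UMIs and no difference was tested. With at most 1% mitochondrial UMIs, which left 8 male and 3 female mural nuclei, the log2 ratio was -0.45 for Pde3a and 0.00 for Pde5a.

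Of 20 ion channel and calcium genes, 3 were at least 4-fold higher in each library, against 0.398% of the 18354 genes above. The list median was below 0 (-0.08 and -0.33). Ano1, the calcium-activated chloride channel, had 9 UMIs in 8 male and 19 UMIs in 12 female nuclei (log2 ratio over other nuclei 2.64 and 2.81). Atp2a3, a calcium pump of the endoplasmic reticulum, had 6 UMIs in 6 male and 9 UMIs in 8 female nuclei (2.25 and 2.16). The L-type calcium channel Cacna1c was not much above other nuclei (0.65 and 0.18).

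Of 24 genes of the basement membrane and its receptors, 4 were at least 4-fold higher in each library (list medians 0.92 and 1.43). The share among the 18354 genes above was 0.398%. Itga1, the collagen-binding integrin subunit, had 33 UMIs in 19 male and 50 UMIs in 25 female nuclei (log2 ratio over other nuclei 4.22 and 4.04). The laminin gene Lama2 stood at 2.59 and 2.34, the nidogen gene Nid1 at 2.24 and 2.54, and Ecm2, which overlaps Cenpp on the other strand, at 2.19 and 2.60. The collagen genes Col4a1 (0.51 and 1.69) and Col4a2 (-0.15 and 0.43) did not reach that level. Timp3, a metalloproteinase inhibitor that lies inside Syn3 on the other strand, stood at 0.50 and 2.13.

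In the list of ligands, receptors and targets of PDGF, TGF-beta, Notch and angiopoietin signalling, all 30 genes had a UMI. At least 4-fold higher in each library were 0 of 30, against 0.398% of the 18354 genes above. The Notch target Heyl had 5 UMIs in each library (2.05 and 1.54), Hes1 had 7 and 13 UMIs (1.57 and 1.86), and Notch1 had 2 and 12 UMIs (0.66 and 1.87). The list median was 0.38 in the male library and 0.43 in the female one, and only 12 of its genes reached 10 UMIs.

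Of 24 transcription factor genes, 3 were at least 4-fold higher in each library (list medians 0.36 and 0.52), against 0.398% of the 18354 genes above. Ebf1, a factor of mural and B cell development, had 77 UMIs in 21 male nuclei (978 CPM) and 159 UMIs in 35 female nuclei (1259.9 CPM), a log2 ratio over other nuclei of 5.17 and 4.62. Zic1 stood at 2.50 and 2.68, and Epas1, which encodes the oxygen-regulated HIF-2 alpha, at 2.33 and 2.04. Tbx18, a factor of mural cell lineage, had only 2 and 8 UMIs. Stra8 had no UMI in mural nuclei of either library, and Nes had 1 UMI in male nuclei and 0 in female ones, so neither could be read at this depth.

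The 20 genes outside all lists with the largest ratios over other nuclei are described next. Dlc1, which acts on small GTPases of the actin skeleton, had 192 UMIs in 24 of 24 male and 293 UMIs in 42 of 43 female nuclei, with 2439 and 2322 CPM against 113 and 135 CPM in other nuclei. It was detected in 8.21% and 10.6% of oligodendrocyte-like nuclei, and after thinning to 1000 UMIs in 78.3% and 76.7% of mural and 2.81% and 4.58% of oligodendrocyte-like nuclei. Arhgap6 (3.40 and 3.16 on the log2 scale over other nuclei), Arhgap29 (3.46 and 2.61) and Arhgap42 (3.11 and 2.75) are other GTPase-activating proteins among them.

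Others of the 20 work at the membrane or outside the cell. Colec12, a scavenger receptor, stood at 4.18 and 3.76, Cp, the copper-binding ferroxidase ceruloplasmin, at 3.67 and 3.97, Igfbp7, a secreted binding protein, at 3.47 and 3.28, and Slc16a12, a monocarboxylate family transporter, at 3.08 and 3.36. Cysltr2, the cysteinyl leukotriene receptor, had 8 UMIs in 7 male and 21 UMIs in 13 female nuclei (2.60 and 3.19). Rbpms, an RNA-binding protein of smooth muscle splicing, stood at 3.96 and 3.65, and Utrn, the dystrophin relative utrophin, at 3.27 and 3.25. The list also held Egflam, Phldb2, Cped1, Pld1 and Ccdc141. Gm15261 lies antisense to Arhgap6, Adap2os to Adap2 and Tbx3os1 to Tbx3, and the sources used here do not give whether the counting used strand, so these are uncertain.

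To see where mural nuclei differed from their neighbours on the vessel, they were set beside 53 endothelial-like nuclei (15 male, 38 female) and 25 fibroblast-like nuclei (9 male, 16 female). Those nuclei were chosen by their own markers and with at most 1 UMI of the 7 mural genes, so the genes of the rule are low there by choice. Among genes outside the rule, Cysltr2 (29 mural UMIs) and Pla1a (18) had 0 UMIs in both classes, and Slc38a11 (61) had 0 and 1. Atp13a5 had 263 mural UMIs (1283 CPM), 3 endothelial UMIs (25.7 CPM) and 15 fibroblast UMIs (174 CPM). A gene with 0 UMIs could lie up to 25.7 CPM in endothelial-like and 34.8 CPM in fibroblast-like nuclei.

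Other leading genes were shared. Ebf1 had 1152 CPM in mural and 1047 CPM in endothelial-like nuclei, Utrn 708 and 935 CPM, Igfbp7 229 and 172 CPM, and Epas1 151 and 309 CPM. Fibroblast-like nuclei held more Slc6a20a (778 against 478 CPM), Colec12 (592 against 468 CPM), Cp (662 against 439 CPM) and Cped1 (1381 against 288 CPM), and Zic1 was at 244 against 137 CPM. Slc6a20a, Colec12 and Zic1 had 0 UMIs in endothelial-like nuclei, so they separated mural from endothelial-like but not from fibroblast-like nuclei. Without replicate libraries none of these differences was tested.

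**Figure D3:**
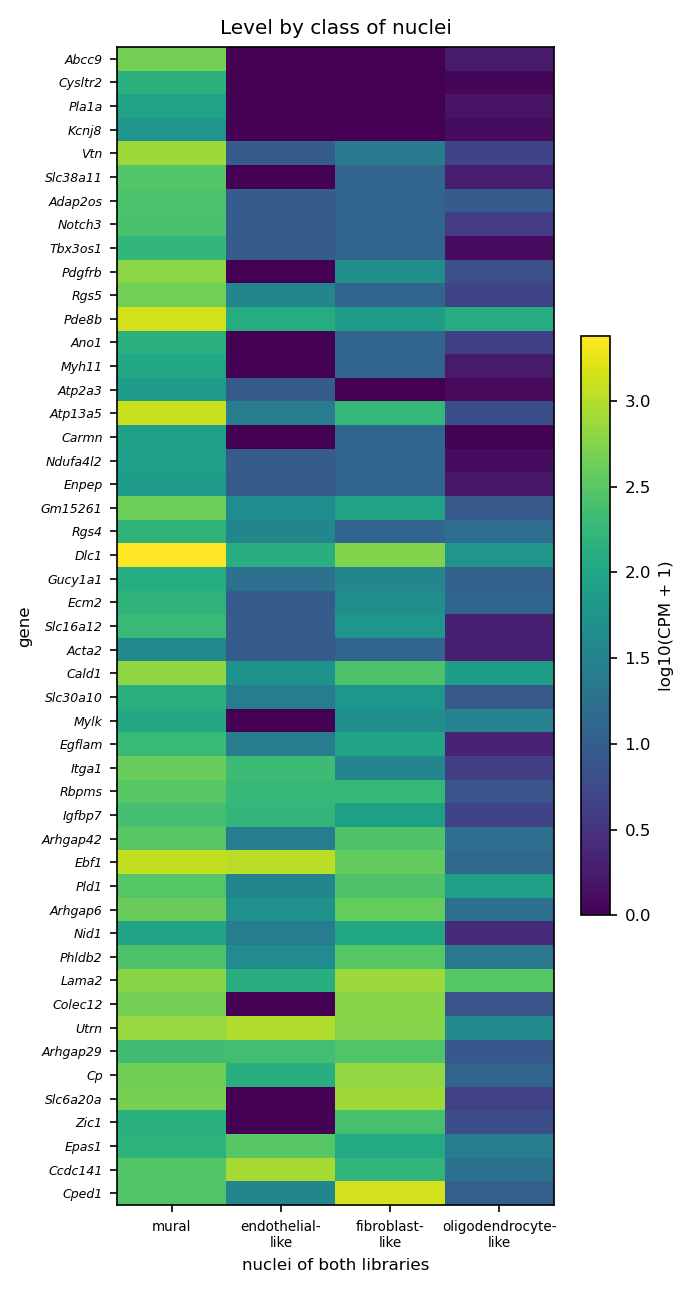
Level of the genes of the rule and leading genes in mural, endothelial-like, fibroblast-like and oligodendrocyte-like nuclei, summed over both libraries, as colour on a log10 scale of CPM plus 1; genes are ordered by the mural level over the higher of the endothelial-like and fibroblast-like levels. Abcc9 and Cysltr2 at the top have no UMI in those classes, and Cped1 at the bottom is at 1381 CPM in fibroblast-like nuclei.

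RNA known from other cells was present in the mural nuclei. The neuron list of 8 genes stood at 3823 CPM in male and 2282 CPM in female mural nuclei, against 6597 and 6009 CPM in other nuclei, with 1 to 40 UMIs per male and 0 to 47 per female nucleus. The astrocyte list of 8 genes stood at 2197 and 2219 CPM, above the 1045 and 1289.7 CPM of other nuclei, and the oligodendrocyte list of 7 genes at 1042 and 1712 CPM, above the 672 and 1190.3 CPM of other nuclei. The endothelial list of 7 genes stood at 178 and 214 CPM, against 12.9 and 29.6 CPM in other nuclei, and rested on 14 and 27 UMIs. The rule limits 2 of these genes. Flt1 had 7 UMIs in 7 male and 13 UMIs in 13 female nuclei (log2 ratio over other nuclei 2.25 and 2.18), and Cldn5 had 1 UMI in each library. The level of this list is thus capped in part by the choice of nuclei. The fibroblast list of 8 genes stood at 63.5 and 198 CPM, against 26.8 and 28.7 CPM, with Col3a1 and Slc47a1 at 0. The microglia list stood at 470.0 and 483 CPM, above the 277 and 289 CPM of other nuclei. The oligodendrocyte precursor list stood at the same 470.0 and 483 CPM, below 669 and 789 CPM, and the ependymal list at 63.5 and 15.8 CPM, against 85.3 and 57.3 CPM. The part of this RNA in the levels of other genes was not tested.

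Ttr, the thyroid hormone carrier of the choroid plexus, was in all 24 male mural nuclei (134 UMIs) and in 20 of 43 female ones (25 UMIs). It was also in 97.9% of male and 26.3% of female oligodendrocyte-like nuclei, and after thinning to 1000 UMIs in 73.9% and 23.3% of mural and 84.7% and 14.3% of oligodendrocyte-like nuclei. The log2 male to female ratio was 2.98 in mural and 3.08 in other nuclei. After thinning, the share with Ttr was lower in mural than in oligodendrocyte-like nuclei, which should lack it, in the male library, and higher in the female one. The part of free RNA in these counts was not tested.

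The male and female mural nuclei were then compared over 2312 genes with at least 20 UMIs in all and UMIs in at least 5 mural nuclei. At least 2-fold higher levels were found for 158 genes on the male side (6.83%) and 170 on the female side (7.35%), and the median log2 ratio was -0.02. The interval left out 1 for 152 and 133 of them. These genes were chosen for being apart, and the interval treats UMIs of the same nucleus as independent, so no conclusion is drawn. In all other nuclei, 2 and 3 of the same genes were that far apart. Those nuclei summed to 102783525 male and 107084562 female UMIs, against 78726 and 126198 in mural nuclei. The part of depth in this gap was not tested. The sex labels held, as Xist had 224 UMIs in 38 female nuclei and none in male ones, at least 46.6-fold higher, while the Y-linked Eif2s3y, Uty and Ddx3y had 8, 9 and 8 UMIs in male nuclei and none in female ones.

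The genes furthest higher in male mural nuclei, apart from Ttr, were known from neurons or high in the other nuclei. Lingo2, a neuronal membrane protein, had 135 UMIs in 10 male and 18 UMIs in 6 female nuclei (log2 male to female 3.42). Adarb2, an RNA-binding protein of interneurons, had 65 UMIs in 8 male and 12 UMIs in 7 female nuclei (2.88). Shisa9 (2.36), Gm26871 (2.30), Mctp1 (2.27), Cntnap5a (2.24) and Tafa2 (2.19) followed. Lingo2 stood at 1715 CPM in male mural nuclei and 1644 CPM in other male nuclei, so its male level was that of the other nuclei and its female level was below it. The neuron list was also higher in the male mural nuclei, as given above.

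When the nuclei with at least 4 UMIs from at least 3 genes of any other cell's list were left out, only 6 male and 15 female nuclei stayed. Adarb2 then stood at -2.81, and Shisa9 and Cntnap5a each at -1.59, so their direction turned, while Lingo2 stood at 0.46, Mctp1 at 0.00, Gm26871 at 1.16 and Tafa2 at 3.63. Without the upper UMI limit, these 7 genes stood between 0.04 (Mctp1) and 1.00 (Lingo2). With other cells' genes removed, the counts past 2-fold were 9 and 26 genes. Without the 4 nuclei of each library richest in neuron genes, a choice made after the data were seen, the counts were 109 genes on the male side and 128 on the female side.

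The genes furthest higher in female mural nuclei were mixed. The muscarinic receptor gene Chrm3 had 0 male UMIs and 31 UMIs in 9 female nuclei, at least 6.45-fold higher in female. When nuclei with 3 marker UMIs were also taken, Chrm3 stood at -0.89 on the log2 scale in place of -3.73. Il1rapl2 (log2 male to female -3.56), Grik1 (-3.15), Cdh20 (-2.96) and Nxph1 (-2.38) are known from neurons or glia, and Sacm1l encodes a lipid phosphatase (-2.45). Without nuclei holding another cell's genes, Il1rapl2 and Grik1 each stood at -1.59 and Nxph1 at 0.00, and with at most 1% mitochondrial UMIs Cdh20 stood at 0.00. Thinned to 1000 UMIs, Nxph1 stood at -0.50, and Il1rapl2 and Etl4 each at -1.70. Without the upper UMI limit, Chrm3 stood at -1.97 and Cdh20 at -1.51. Etl4 (-2.96) had 21 of its 42 female UMIs in 1 nucleus, and Ptgds, the prostaglandin D2 synthase of meninges and oligodendrocytes (-2.87), had 86 of its 145 female UMIs in 1 nucleus. With at most 1% mitochondrial UMIs Ptgds stood at 1.69, and without nuclei holding another cell's genes Ptgds stood at -0.62 and Sacm1l at 1.16.

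Of 50 genes of the lists with mural roles that had enough UMIs to be compared, 8 passed 2-fold on the female side (16.0%) and 3 on the male side, against 7.35% and 6.83% of all genes compared. Besides Pde3a (log2 male to female -2.10) and Pde5a (-2.04), these were Timp3 (-1.77), Kcnq5 (-1.33), Itgb1 (-1.20), Col4a1 (-1.18), Itpr1 (-1.05) and Ednra (-1.01). Itpr1, the calcium release channel, had 29 UMIs in 16 male and 99 UMIs in 35 female nuclei (ratio 0.470, 0.299 to 0.717). The interval for Ednra (0.145 to 1.11) and for Itgb1 (0.0877 to 1.08) held 1. With at most 1% mitochondrial UMIs (8 and 3 nuclei), Ednra stood at 1.69 and Kcnq5 at 2.12, so their direction turned, while Itpr1 stood at -0.15 and Trpc6 at 4.14. Without nuclei holding another cell's genes, Kcnq5 stood at 0.82, also turned. With nuclei thinned to 1000 UMIs Timp3 stood at -0.58 and Kcnq5 at -0.09, and without the upper UMI limit Itpr1 stood at -0.37. Higher in the male library were Trpc6 (1.58), Mrtfb (1.22) and Ryr2 (1.09), and without the upper UMI limit Ryr2 stood at 0.42.
Of the genes outside the rule, the 5 with the highest mean log2 ratio over other nuclei had log2 male to female ratios of 0.27 (Atp13a5), -0.36 (Ebf1), 0.37 (Slc6a20a), 0.08 (Itga1) and 0.07 (Dlc1), and the counting interval of each held 1.

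**Figure D4:**
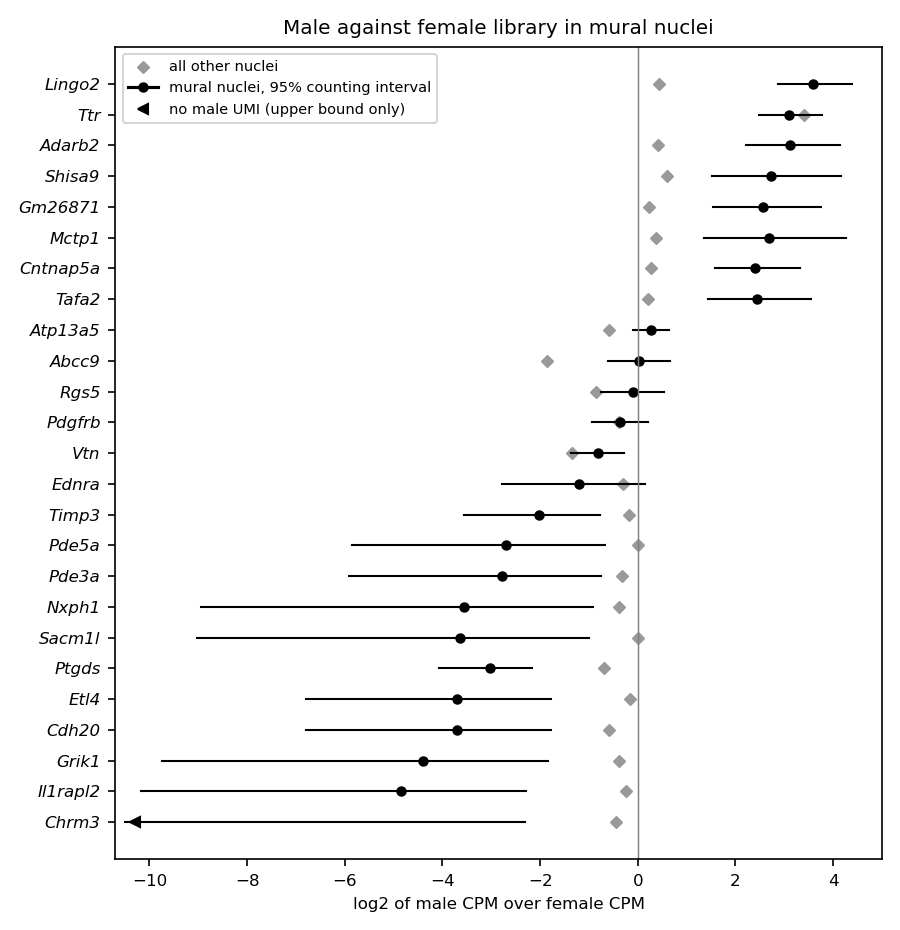
Log2 of male over female CPM in mural nuclei (black, with 95% counting intervals) and in all other nuclei (grey diamonds), without an added constant, for the genes furthest apart and for chosen mural genes; the arrow marks Chrm3, which has no male UMI, and its line runs from the upper bound to the edge of the plot. Ttr lies near the other nuclei, while Pde3a and Pde5a lie below them.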

How the data were processed

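Single-nucleus RNA was measured in 1 male and 1 female hippocampal library. The authors deposited UMI counts, not normalised, for 32285 genes in each barcode; the file headers name Cell Ranger 7.0.1. The submitters' processing notes also name bcl2fastq 2.20.0.422 and the build mm10. Whether intronic reads were counted, which annotation was used and how nuclei were told from empty droplets is not given in the sources used here. Positions came from GENCODE vM21 (mm10), matched by gene identifier, and promoters from RefSeq (GRCm38.p6).

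Nuclei were picked by the rule in the report with Python 3.11.15, numpy 2.4.6, scipy 1.17.1 and pandas 2.3.3. UMIs were summed per class and library and given as CPM computed here. Log2 ratios are of CPM plus 20, which understates low genes; ratios printed with an interval, and the plot of male against female levels, have no added constant. Of the barcodes passing the gene and mitochondrial limits, 37 male and 94 female ones had the marker counts. Of these, 9 and 26 had over 8000 UMIs, and 4 and 25 of the rest exceeded the endothelial limit. Another 1 and 3 barcodes with the marker counts failed the gene or mitochondrial limit. Doublets were not removed beyond the UMI limit; Scrublet in scanpy 1.11.5, taking the top 8% of scores per library, marked 0 of 24 and 2 of 43 mural nuclei. Intervals of shares are exact Clopper-Pearson, and those of ratios exact conditional binomial. Ratios and their intervals were tried on simulated counts that held counting error only, so the run says nothing of the spread between nuclei.

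Named genes were those of the rule; up to 8 per list with at least 10 UMIs and at least 4-fold higher in each library, plus at most 3 others per list for their role; the 20 leading genes outside the lists; the 8 furthest apart each way between libraries; and list genes at least 2-fold apart. Exceptions are named as such in the report. The members and lists were chosen with earlier results of these data known. Alternatives changed the marker, depth, endothelial, mitochondrial and doublet limits, the pseudocount and the gene filter. Some genes that meet the rule for named genes are not reported here.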

Additional observations from a re-analysis of the deposited data

Results flagged for a closer look

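Some barcodes carried the marker counts of mural nuclei but lay over the limit of 8000 UMIs and were not counted among the mural nuclei. Those passing the gene and mitochondrial limits were part of the other nuclei that mural levels are set against, and those that also passed the endothelial limit entered the alternative without an upper UMI limit (31 and 55 mural nuclei). There were 9 in the male library (median 11540 UMIs) and 26 in the female library (median 14798 UMIs). Their pericyte list stood at 1499 and 713 CPM, below the 3417 and 3233 CPM of the mural nuclei but above the 247 CPM of other nuclei in each library. Their neuron list stood at 4950.0 and 4408 CPM, above the 3823 and 2282 CPM of the mural nuclei but below the 6597 and 6009 CPM of other nuclei. No control sample allows a further comparison.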

How the results depend on the processing

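No paired analysis was possible because each group has 1 library. Over the main comparisons, 61 values under the alternatives stayed close to the main one and 19 moved. Without an upper UMI limit 35 genes were 4-fold higher in mural nuclei, in place of 73. With at most 1% mitochondrial UMIs the share ratio was 1.91 (8 and 3 nuclei), 27 genes were 4-fold higher, 49 genes were higher in the female library, and 75.0% and 0% of nuclei were contractile-rich; Ednra stood at 1.69, Kcnq5 at 2.12 and Ptgds at 1.69 (log2 male to female), and Atp2a3 at -0.01 and Acta2 at -0.06 (log2 mural over other). Without nuclei holding another cell's genes (6 and 15 left), 152 genes were 4-fold higher, 9 lay on the male side past 2-fold and 26 on the female side; Kcnq5 stood at 0.82, Adarb2 at -2.81, Shisa9 and Cntnap5a at -1.59, Sacm1l at 1.16 and Acta2 at -0.09. Thinned to 1000 UMIs, 32 and 51 genes were apart, and 8.70% and 25.6% of nuclei were contractile-rich. A pseudocount of 50 CPM gave 108 genes higher in the female library, and a minimum of 50 UMIs gave 50 and 39. At least 5 contractile UMIs from 3 genes gave 37.2% of female nuclei, and the restricted list, chosen after the data were seen, 8.33% and 18.6%. The causes were not tested. Of the named genes, 323 of the male to female values stayed close, 47 moved and 8 reversed. Of their mural over other values, 394 stayed close, 164 moved and 3 reversed. With 24 and 43 nuclei, genes of a few UMIs cannot be compared between libraries.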
